A study of Danio rerio with 17 samples.

Results

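The comparison described here is the response of male zebrafish liver to dietary carbohydrate: 3 males fed 25% carbohydrate against 4 males fed 0%, out of 17 fish in a study that crossed sex with these diets. Members were chosen by the sex and diet in the sample titles. The males on 0% were fish 11, 26, 30 and 66, and the males on 25% were fish 52, 53 and 54, with total liver RNA of each fish on its own Affymetrix array. The study's design text counts 3 males on 0% and 4 on 25%. The sample titles, which were followed, give 4 and 3. Strain, age, time on the diet and the nutrient that took the place of carbohydrate are not given in the sources used here. The 10 females enter only where they are named.

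The liver takes up dietary glucose, stores part of it as glycogen and turns part of it into fatty acids, and it makes new glucose when food brings none. It also secretes most plasma proteins, which are folded and given their first sugars in the endoplasmic reticulum (ER) before they move to the Golgi. When folding demand in the ER exceeds capacity, a set of sensors raises the genes of ER chaperones, a program called the unfolded protein response.

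Values are deposited log2 signals, differences are 25% minus 0% on the log2 scale ± standard error (SE), and a difference of 1 is a 2-fold change in signal. The 7 arrays had medians between 3.53 and 3.56 and correlated with each other at 0.924 to 0.981. No detection calls were used, so signals near or under an array's median may be background, and fold changes from there are approximate. The SE of a male difference is that of the 7 male arrays, even beside an adjusted p from the fit that includes the females. Female differences and female minus male differences carry the SE of that fit. Markers of neighbouring organs differed between fish, and whether RNA of those organs was carried along was not tested. Intestinal markers (24 genes) had means of 7.89, 7.92 and 8.56 in fish 11, 66 and 52, against 4.82 to 5.11 in the other 4 males. Exocrine pancreas markers (21 genes) averaged 11.27, 11.01 and 9.62 there and 6.23 to 8.53 in the others. Muscle markers (29 genes) averaged 5.60 in fish 52, 4.53 in fish 66 and 3.86 to 3.98 elsewhere. Because fish 11 and 66 were on 0% and fish 52 on 25%, results are also given without these 3 fish, which leaves 2 fish on each diet. The hepatocyte markers (14 genes) averaged 11.68 to 12.18 in all 7 males, so the labelled tissue was present in every sample. In whole liver, fewer cells of a type and less RNA per cell cannot be told apart.

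**Figure D1:**
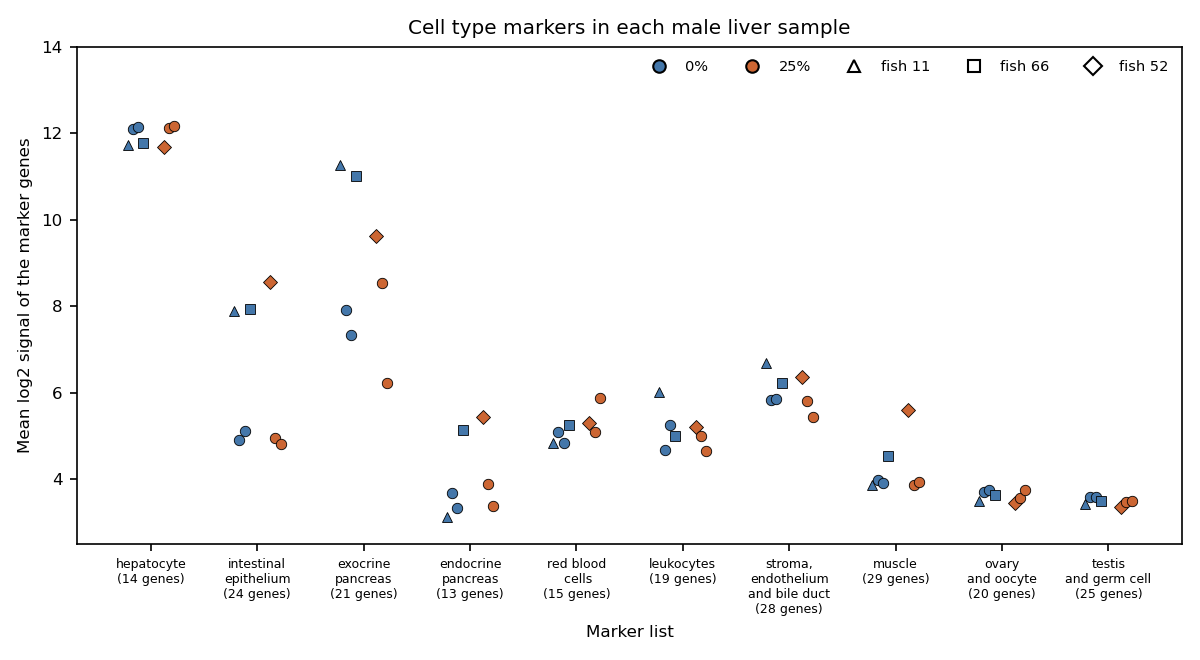
Mean log2 signal of the marker genes of 10 cell types (horizontal axis) in each of the 7 males, with fish on 0% in blue and fish on 25% in orange. Fish 11, 66 and 52 have their own symbols and stand above the other 4 males for intestine and exocrine pancreas, while the hepatocyte means of all 7 lie between 11.68 and 12.18.

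In the 7 males, chaperones and folding enzymes of the ER lay higher on 25% carbohydrate, together with the citrate carrier gene slc13a5a, and btg1, ing3 and fthl30 lay lower. No probe set passed an adjusted p of 0.05 when the 7 male arrays were fitted alone: 0 of 15502 (0%) by limma, with a lowest adjusted p of 0.0747, and 971 (6.26%) at an unadjusted p of 0.05. A fit of all 17 arrays, in which the females help to estimate the spread between fish, called 18 probe sets for the same male comparison (0.116%), of which 15 were higher on 25% (0.0968%) and 3 lower (0.0194%). All 18 separated the diet groups, meaning that every fish on one diet lay above every fish on the other. Separation was seen for 1038 probe sets (6.70%), 526 of them higher on 25% (3.39%) and 512 lower (3.30%), and of these 71 and 28 differed by at least 2-fold. In the text, "separated" means this, and "rose" or "fell" is used only of genes called in the fit of 17 arrays. That fit was an alternative to the main test in the 7 males, which called none, and 10 of its 17 fish were females. The number of calls in that fit depended on single fish: it was 1 (slc13a5a) without fish 53, 4 without fish 54, 5 without fish 30, 7 without fish 26, 8 without fish 11, 39 without fish 66 and 52 without fish 52. Without fish 11, 52 and 66 together it was 28, of which 7 were among the 18. For a single gene taken alone, an exact permutation test of 3 against 4 fish has 35 splits and cannot give a two-sided p under 0.0571.

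Slc13a5a encodes a sodium-coupled carrier of the cell membrane that brings citrate, a precursor of fatty acids, into the cell. Its log2 signals on 0% were 2.59, 2.98, 2.73 and 3.49 in fish 11, 26, 30 and 66. On 25% they were 6.09, 5.76 and 5.46 in fish 52, 53 and 54. All 3 fish on 25% stood far above all 4 on 0%, whose values lay below their arrays' medians. The difference was 2.82 ± 0.25, a 7.08-fold higher signal, with an adjusted p of 0.0747 in the males alone and 1.79e-05 in the fit of 17 arrays, where slc13a5a rose. It kept its call in that fit whichever of the 17 fish was left out. Without fish 11, 52 and 66 the difference was 2.75. In females the gene stayed between 2.35 and 2.57 on 0% and between 2.31 and 3.12 on 25%. The female difference minus the male difference was -2.73 ± 0.28 (adjusted p = 0.00101).

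**Figure D2:**
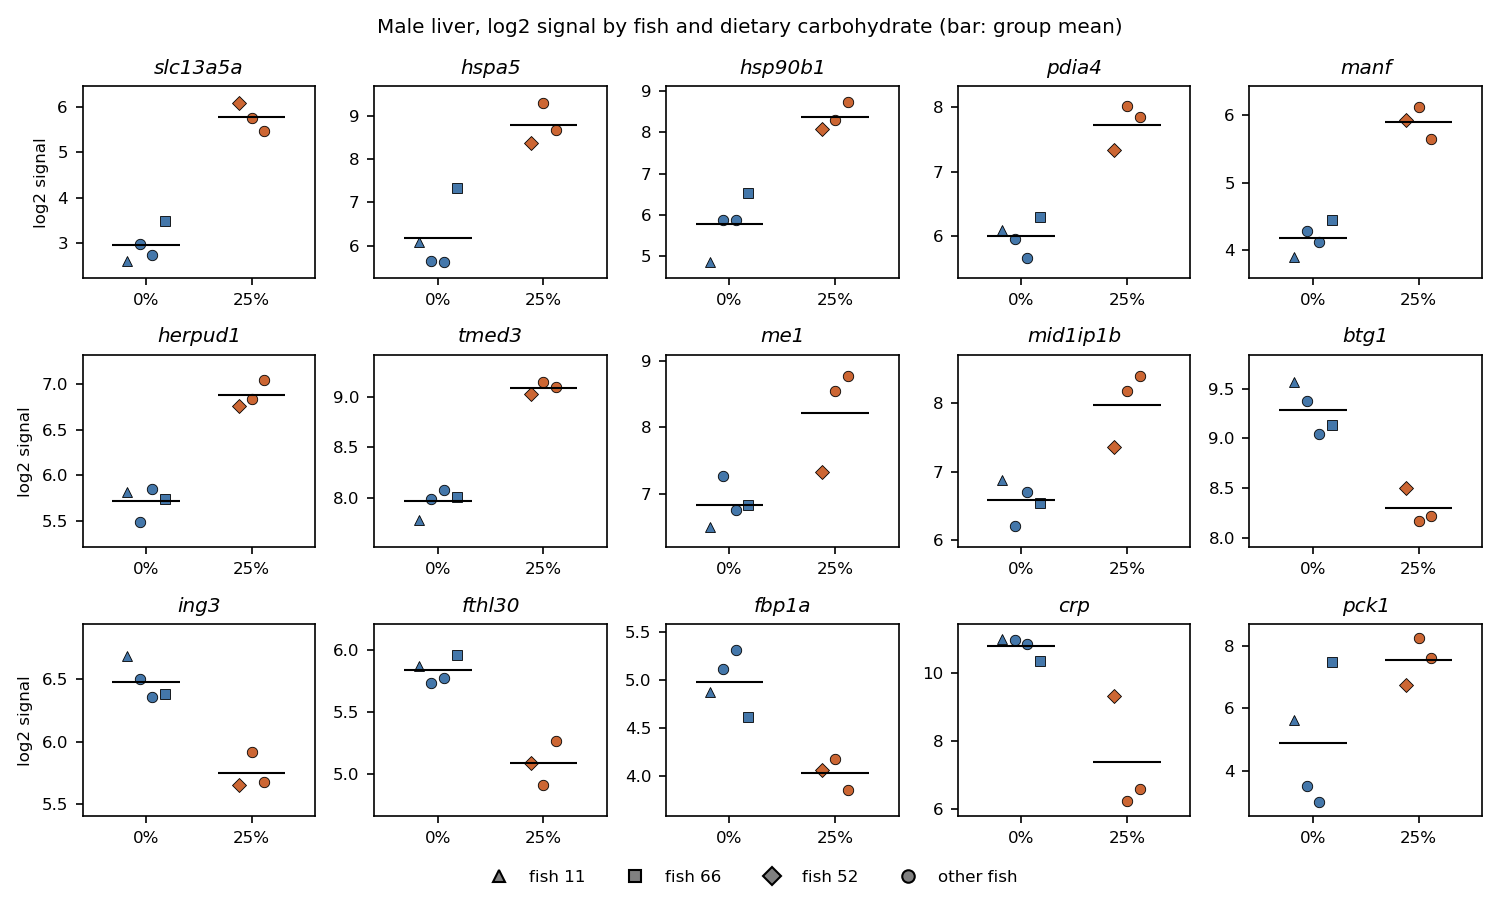
Log2 signal of 15 genes in each of the 7 males, with a bar at each group's mean, blue for 0% and orange for 25% carbohydrate. The diets separate for all genes shown except pck1, and for slc13a5a the fish on 25% lie between 5.46 and 6.09 against 2.59 to 3.49.

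Of the 43 measured genes of ER folding and the unfolded protein response, 17 separated with the fish on 25% higher (39.5%) and 1 with them lower. Among all genes, with 1 probe set each, 354 of 8793 (4.03%) separated higher and 265 (3.01%) lower. The ER list was chosen with earlier results of these data known, so its share is a description and not an independent test. The median difference of the 43 genes was 0.38, and 35 of them lay above 0, while the median of all probe sets was -0.01. The list mean per fish was 5.42 to 5.76 on 0%, with fish 66 highest, and 6.10 to 6.25 on 25%, so the groups did not overlap. With the 7 males alone none of the 43 passed. In the fit of 17 arrays 8 of them rose, where 0.0968% of all probe sets were called higher. The number of ER list genes called in that fit depended on single fish. It was 0 without fish 53, 1 without fish 54, 3 without fish 26 or fish 30 and 4 without fish 11. It was 8 without fish 52 and 10 without fish 66. Without fish 11, 52 and 66 the median was 0.47, and 28 of the 43 separated higher and 3 lower among the remaining 4 fish, where 18.2% and 20.2% of all probe sets did so. None of the 21 exocrine pancreas markers had a difference above 0, and their median was -1.34. The ER median was 0.40 with the pancreas marker mean as a covariate and 0.37 with the intestinal one. The ER and pancreas lists both name pdia2 and erp27, so the pancreas covariate is not independent of the ER list. The part of pancreatic RNA in the ER values was not tested.

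**Figure D3:**
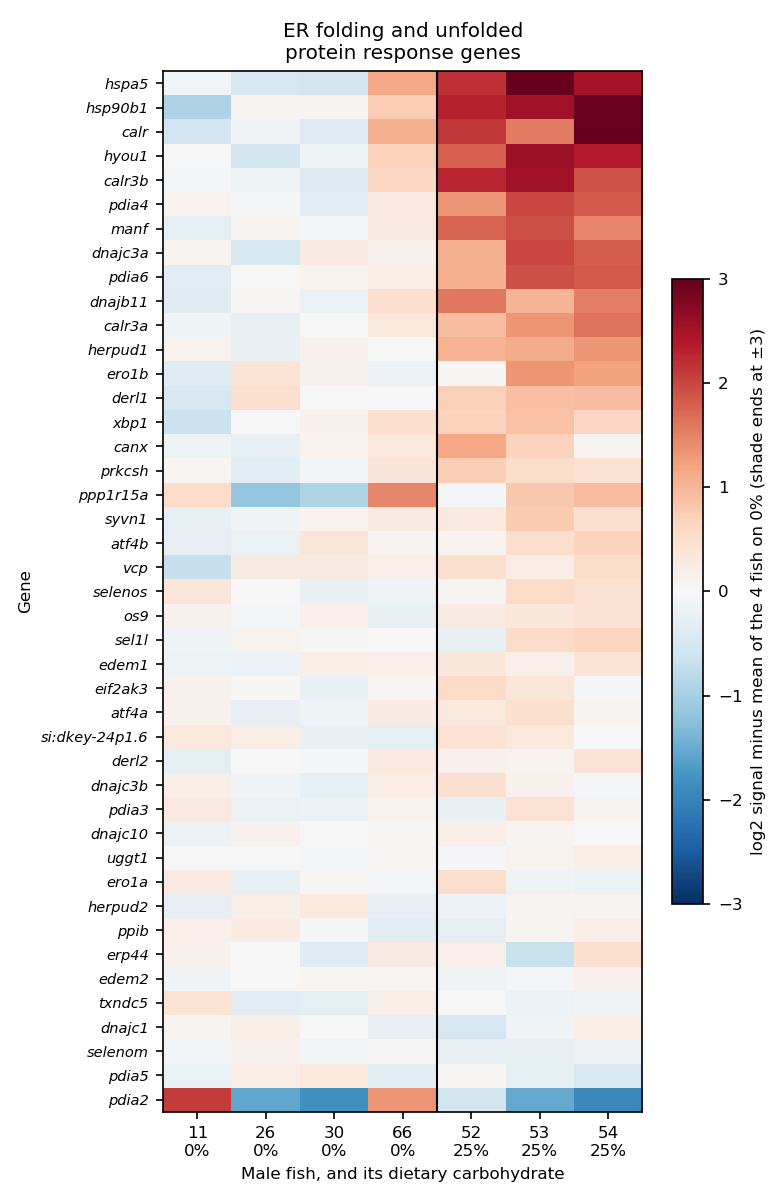
Log2 signal of the 43 ER folding genes (vertical axis) in each of the 7 males (horizontal axis), minus the mean of the 4 fish on 0%, with shades ending at differences of 3 in either direction. The leading genes are high in all 3 fish on 25%, and among the fish on 0% the values of fish 66 lie nearest to them.

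Among the luminal chaperones, hspa5 (BiP, the main ER member of the Hsp70 family) had log2 signals of 6.09, 5.64, 5.63 and 7.32 in fish 11, 26, 30 and 66 on 0%. On 25% it reached 8.37, 9.30 and 8.66 in fish 52, 53 and 54. Fish 66 was the highest of its group yet stayed below all fish on 25%. The difference was 2.61 ± 0.45, or 6.09-fold, and hspa5 rose in the fit of 17 arrays (adjusted p = 0.0130) and missed in the 7 males (0.274). Without fish 11, 52 and 66 it was 3.35.

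Hsp90b1 (GRP94, the ER member of the Hsp90 family) gave 4.84, 5.86, 5.87 and 6.54 on 0% and 8.08, 8.30 and 8.74 on 25%, in the same order of fish. All fish on 25% lay well above fish 66, the highest on 0%, with a difference of 2.59 ± 0.38 (adjusted p = 0.0142 in the fit of 17 arrays). Hyou1, a large chaperone that exchanges nucleotides on BiP, gave 5.35, 4.81, 5.24 and 6.06 against 7.16, 7.96 and 7.73. Its difference was 2.25 ± 0.32 (adjusted p = 0.0254 in the fit of 17 arrays). The BiP co-chaperone genes dnajc3a and dnajb11 differed by 1.63 ± 0.27 and 1.38 ± 0.24 and both separated. Of these 2 genes dnajc3a rose in the fit of 17 arrays (adjusted p = 0.0262).

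Calreticulins are calcium-binding chaperones that hold glycoproteins until they fold. Calr3a gave 8.56, 8.47, 8.71 and 9.01 on 0% and 9.61, 10.01 and 10.31 on 25%, a difference of 1.29 ± 0.20. It rose in the fit of 17 arrays (adjusted p = 0.0385), a call that held in 7 of the 17 fits that left out 1 fish. Calr3b and calr were dimmer on 0%, at 3.36 to 4.41 and 2.86 to 4.49, and differed by 2.24 ± 0.26 and 2.37 ± 0.55. All 3 genes separated the diets.

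Protein disulphide isomerases form the disulphide bonds of secreted proteins. Pdia4 gave 6.10, 5.96, 5.66 and 6.30 on 0% and 7.34, 8.02 and 7.85 on 25%, a gap of over 1 between the nearest fish. Its difference was 1.73 ± 0.21, and it rose in the fit of 17 arrays (adjusted p = 0.0297). Pdia6 separated by 1.61 ± 0.23. Other enzymes of the family showed no such difference, with pdia3 at 0.10, erp44 at -0.01 and txndc5 at -0.09. Pdia2, the isomerase of the exocrine pancreas, had a difference of -1.34 and did not separate.

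Manf, which encodes a small ER protein secreted under ER stress, gave 3.89, 4.28, 4.12 and 4.44 on 0%. On 25% it gave 5.93, 6.12 and 5.65, so the lowest fish on 25% lay above the highest on 0% by more than the whole range of either group. The difference was 1.71 ± 0.17, with an adjusted p of 0.0747 in the 7 males and 0.0130 in the fit of 17 arrays, where manf rose. Of the genes that return misfolded proteins to the cytosol for degradation, herpud1 gave 5.82, 5.49, 5.85 and 5.74 against 6.76, 6.84 and 7.04. Its difference was 1.15 ± 0.12, and it rose in the fit of 17 arrays (adjusted p = 0.0220). Derl1, syvn1 and os9, of the same degradation pathway, separated by 0.84 ± 0.22, 0.53 ± 0.16 and 0.36 ± 0.12. Xbp1, whose protein switches on ER chaperone genes under folding stress, gave 8.19, 8.82, 8.97 and 9.35 on 0% and 9.53, 9.70 and 9.44 on 25%. Fish 66 and 54 lay close together, and the difference of 0.73 ± 0.26 had an adjusted p of 0.739. The array measures total xbp1 RNA and not its splicing. Atf4a and atf4b, of another arm of that response, had differences of 0.29 ± 0.15 and 0.43 ± 0.19, and their groups overlapped. Selenom was the 1 gene of the list that separated lower, at -0.22 ± 0.08.

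Genes that act before and after folding lay in the same direction with smaller differences. Of 41 genes of ER translocation and glycosylation, 9 separated higher and 0 lower, where 4.03% and 3.01% of all genes did so. Of the 41 genes, 35 lay above 0, and the median was 0.21 (0.15 with the pancreas covariate). They included sec61a1b, of the channel through which new proteins enter the ER (0.80 ± 0.23), spcs2, of the signal peptidase (0.78 ± 0.21), and ddost, of the sugar-transferring complex (0.67 ± 0.15). Of 42 genes of transport between ER and Golgi, 6 separated higher and 1 lower (sec22a, -0.13 ± 0.10), 36 lay above 0, and the median was 0.26. Tmed3, a cargo protein of transport vesicles, gave 7.78, 7.99, 8.08 and 8.01 on 0% and 9.03, 9.15 and 9.10 on 25%. Both groups were tight, and the difference was 1.13 ± 0.10 (adjusted p = 0.0747 in the 7 males, 0.143 in the fit of 17 arrays). Tmed9 separated by 0.86 ± 0.15. The plasma proteins that pass through this route showed little difference: of 42 genes 1 separated higher (apoeb, an apolipoprotein, 0.56 ± 0.18) and 0 lower, with a median of 0.05 (0.26 without fish 52, -0.082 with the pancreas covariate).

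**Figure D4:**
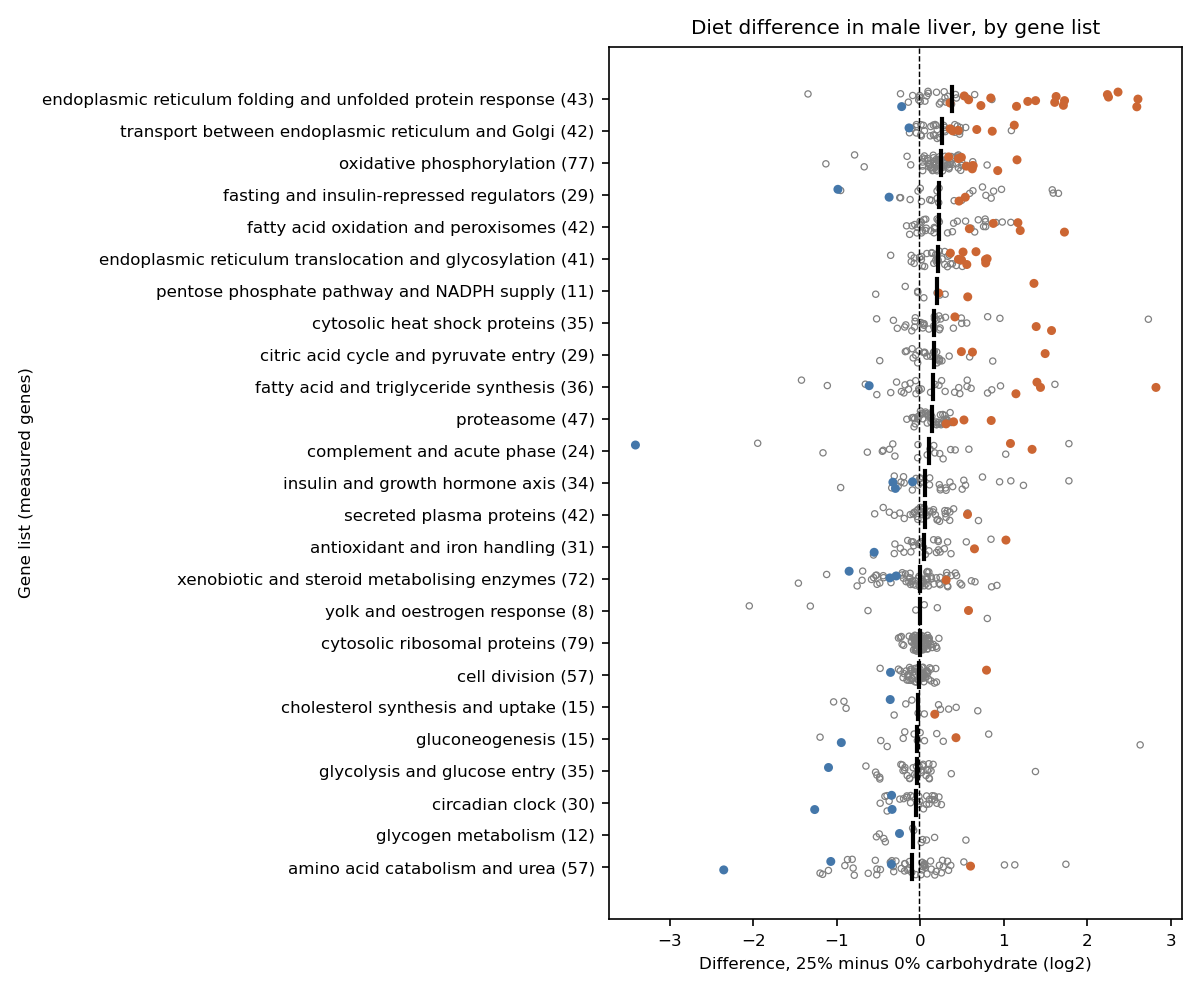
Difference in log2 signal, 25% minus 0%, of each measured member of the pathway lists, with the list median as a black bar and the median of all probe sets as a dashed line. Filled points are genes whose diet groups do not overlap, orange where 25% is higher and blue where it is lower, and they are most frequent in the ER folding list (17 of 43 higher).

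Of the genes outside the ER list that rose in the fit of 17 arrays, id:ibd1087 gave 6.98, 7.02, 7.07 and 7.78 on 0% and 9.14, 9.58 and 9.57 on 25%. Its difference was 2.22 ± 0.23 (adjusted p = 0.0205), and without fish 11, 52 and 66 it was 2.53 and was 1 of the 4 probe sets (0.0258%) called among the 4 remaining males alone (adjusted p = 0.042). Its probe set and that of calr3b, an ER list gene with a difference of 2.24, carry the same cluster number in their names. Whether id:ibd1087 is a gene apart from calr3b was not tested. Usp2a, which encodes an enzyme that removes ubiquitin, also rose, and its difference was 1.45 ± 0.30. So did g3bp2a, an RNA-binding protein of stress granules, with a difference of 0.93 ± 0.20. The 3 probe sets without a gene name that were called higher differed by 1.91, 1.05 and 0.87. By the naming rule, tars1 (the threonine tRNA ligase) and tmco1 (an ER calcium channel) also separated, by 0.99 ± 0.12 and 0.77 ± 0.10, without a call.

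Of the lower genes, btg1, an antiproliferative regulator, gave 9.57, 9.37, 9.04 and 9.14 on 0%. On 25% it gave 8.50, 8.17 and 8.22. All fish on 25% lay below all on 0%, and btg1 fell in the fit of 17 arrays, by 0.99 on the log2 scale (SE 0.15, adjusted p = 0.0254). Ing3, a chromatin protein of a histone acetyltransferase complex, gave 6.69, 6.49, 6.35 and 6.38 against 5.65, 5.91 and 5.68. Its difference was -0.73 ± 0.12 (adjusted p = 0.0371 in the fit of 17 arrays), and its call held in 6 of the 17 fits that left out 1 fish. Fthl30, a ferritin heavy chain-like gene whose family stores iron, gave 5.87, 5.74, 5.78 and 5.96 against 5.08, 4.91 and 5.26. Its difference was -0.75 ± 0.11. It fell in the fit of 17 arrays (adjusted p = 0.0322), and the call held in 9 of those 17 fits. Ferritin-like genes are near-identical and their probes may share signal. A second one, fthl27, separated at -0.66 ± 0.12. By the naming rule cited4b (a transcriptional co-regulator), coq8aa (of coenzyme Q synthesis), dedd1, tmem179ba, si:dkeyp-44a8.2 and chfr (a ubiquitin ligase of a mitotic checkpoint) also separated lower, between -0.43 and -0.92, without a call.

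Genes that use or make glucose went both ways. Of 35 genes of glycolysis and glucose entry 0 separated higher and 1 lower (all genes 4.03% and 3.01%). Their median was -0.04, with a range from -1.11 to 1.38. The lower gene was ldhba, a lactate dehydrogenase, at -1.11 ± 0.35, and fish 52 was its lowest value at 6.88. Of 12 genes of glycogen metabolism 1 separated lower (ppp1r3da, -0.26 ± 0.14) and 0 higher, with a median of -0.08. Of 15 genes of gluconeogenesis, fbp1a and mdh1ab separated, and the median was -0.03, with a range from -1.20 to 2.63. Leaving out fish 11, 52 and 66, 4 of the 15 separated higher and 8 lower (all probe sets 18.2% and 20.2%), with a median of -0.16. Fbp1a, the fructose bisphosphatase gene, gave 4.88, 5.12, 5.31 and 4.62 on 0% and 4.07, 4.18 and 3.86 on 25%. All fish on 25% were lower, by -0.94 ± 0.18 (adjusted p = 0.349 in the 7 males, 0.0853 in the fit of 17 arrays). Mdh1ab was near background at 3.05 to 3.15 on 0% and 3.43 to 3.68 on 25%.

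Pck1, the entry enzyme of gluconeogenesis, went the other way. It gave 5.64, 3.49, 2.99 and 7.47 in fish 11, 26, 30 and 66 on 0% and 6.73, 8.24 and 7.62 on 25%. Fish 66 overlapped the 25% group, and fish 11 and 66, the fish on 0% with high intestinal marker means, were the high ones of their group. On 25%, fish 52, with the highest intestinal marker mean of all 7 males (8.56), was the lowest. The difference was 2.63 ± 1.09 (adjusted p = 0.782 in the 7 males, 0.522 in the fit of 17 arrays). Without fish 11, 52 and 66 it was 4.69 with the diets separated. Over the 7 males it was 2.77 with the intestinal marker mean as a covariate and 3.34 with the pancreas one. The part of the intestinal RNA in these levels was not tested. The mitochondrial form pck2 and the malate dehydrogenase gene mdh1aa differed by 0.05 ± 0.22 and -0.20 ± 0.11.

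Among genes of lipid synthesis and its reducing power, me1, the malic enzyme gene that supplies NADPH, was measured by 2 probe sets. The brighter gave 8.62, 9.46, 9.03 and 8.92 on 0% and 9.56, 10.46 and 11.09 on 25%. The dimmer gave 6.51, 7.27, 6.76 and 6.83 against 7.33, 8.55 and 8.77. Both separated, with differences of 1.36 ± 0.37 and 1.38 ± 0.36, although fish 52 lay close to fish 26 (adjusted p = 0.592 for the dimmer). Mid1ip1b, an activator of the first enzyme of fatty acid synthesis, gave 6.88, 6.20, 6.70 and 6.54 against 7.35, 8.18 and 8.40. Its groups separated with means of 6.58 ± 0.29 (SD, n = 4) and 7.98 ± 0.55 (SD, n = 3), a 2.64-fold higher signal. The adjusted p was 0.417 by limma in the 7 males. Elovl5, a fatty acid elongase, and agpat3, an acyltransferase of phospholipid and triglyceride synthesis, separated by 1.44 ± 0.46 and 1.15 ± 0.52. In both, fish 11 was the lowest, and the agpat3 difference was 0.41 without fish 11, 52 and 66. Lpin2, a phosphatidate phosphatase, separated lower at -0.61 ± 0.14. Over the 36 genes of fatty acid and triglyceride synthesis, 4 separated higher and 1 lower (all genes 4.03% and 3.01%). Their median was 0.15. That median was 0.046 without fish 11, 52 and 66, 0.039 with the pancreas covariate and 0.030 without fish 54. Over the 11 genes of the pentose phosphate pathway and NADPH supply, 3 separated higher and 0 lower, with a median of 0.20 that was 0.11 without fish 11, 52 and 66. Pgd, an NADPH-forming enzyme of that pathway, had a difference of -0.18 ± 0.50 with fish 11 highest at 8.81. Of the 15 cholesterol genes, stard4, a cholesterol transfer protein, separated lower at -0.36 ± 0.08 and mvk separated higher near background, and the median was -0.03.

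Mitochondrial genes were mostly above 0. Among all genes 4.03% separated higher and 3.01% lower, and 7384 of 15502 probe sets lay above 0, against which the counts here are set. List means per fish overlapped for oxidative phosphorylation (8.13 to 8.55 on 0%, 8.40 to 8.70 on 25%). They also did for fatty acid oxidation and peroxisomes (6.28 to 7.30 and 6.87 to 7.39). Those of the citric acid cycle list did not (6.47 to 6.75 and 6.78 to 6.88). Of 77 genes of oxidative phosphorylation 72 lay above 0, 9 separated higher and 0 lower, and the median was 0.25 (0.15 with the pancreas covariate). Examples were cycsb (cytochrome c, 0.93 ± 0.20), uqcrc2a (of complex III, 0.63 ± 0.18) and ndufs1 (of complex I, 0.46 ± 0.12). Of 29 genes of the citric acid cycle and pyruvate entry 3 separated higher and 0 lower, with a median of 0.16 that was 0.083 without fish 11, 52 and 66. Mpc2b, of the pyruvate carrier, was one of them, with fish 11 at 6.95 and the other 3 fish on 0% at 9.65 to 10.26. Of 42 genes of fatty acid oxidation and peroxisomes 5 separated higher and 0 lower, with a median of 0.22 (0.082 with the pancreas covariate). Hadhb, of the trifunctional enzyme, gave 6.99, 8.48, 8.08 and 7.63 on 0% and 8.77, 9.07 and 9.15 on 25%. Cpt2 (of carnitine-dependent import) and acadl (a dehydrogenase) differed by 1.17 ± 0.35 and 0.88 ± 0.31. Fish 11 was the lowest of all 7 males for these 3 genes, and without fish 11, 52 and 66 the differences of hadhb, cpt2 and acadl were 0.83, 0.85 and 0.55. Cpt1b, another import gene, was dim on 0% at 2.39 to 3.18 and gave 3.59, 5.38 and 4.71 on 25%.

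The cytosolic ribosomal protein, proteasome, heat shock and amino acid catabolism lists had lower medians than the ER folding list (0.38). Of all genes, 4.03% separated higher and 3.01% lower. None of the 79 cytosolic ribosomal protein genes separated in either direction, and their median was -0.01. Of 47 proteasome genes 4 separated higher (psmd8 by 0.85 ± 0.20) and 0 lower, with a median of 0.14 and 38 above 0. The median was 0.026, with 26 above 0, without fish 11, 52 and 66. Of 35 heat shock genes 3 separated higher and 0 lower, with a median of 0.17. That list is mostly cytosolic but also names mitochondrial chaperones (hspa9, hspd1, hspe1) and ER ones (serpinh1a, serpinh1b). Dnajb1b and dnaja2b, co-chaperones of cytosolic Hsp70, separated by 1.57 ± 0.49 and 1.39 ± 0.40. Fkbp5, a co-chaperone of Hsp90 that glucocorticoids raise in mammals, had the largest difference of the list, 2.73 ± 0.96, but its groups overlapped. Of 57 genes of amino acid catabolism and urea 1 separated higher (hibadhb, 0.60 ± 0.15) and 3 lower, with a median of -0.10 (-0.25 with the pancreas covariate). Cbsb, of cysteine synthesis, gave 7.73, 7.61, 7.06 and 7.27 against 6.07, 6.21 and 6.76, and tdh, a threonine dehydrogenase, gave 10.18, 9.05, 7.18 and 7.90 against 6.18, 6.17 and 6.32. For tdh the fish on 0% ranged far more widely than those on 25%, and the difference was -2.35 ± 0.67.

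Of 24 genes of complement and the acute phase 2 separated higher (stat3, 1.34 ± 0.24, and nfkbiab, 1.08 ± 0.38) and 1 lower, with a median of 0.10. That median was 0.28 without fish 11, 52 and 66, 0.36 without fish 52 and -0.052 without fish 66. The lower gene was crp, a pentraxin of the acute phase. It gave 11.01, 10.99, 10.87 and 10.36 on 0% and 9.34, 6.23 and 6.61 on 25%. Fish 52 lay between fish 53 and 54 and the 0% group, and the difference was -3.41 ± 0.72 (adjusted p = 0.446), a 10.6-fold lower signal. Without fish 52 it was -4.38, and without fish 11, 52 and 66 it was -4.50. In the remaining 4 males, 2 on each diet, crp was 1 of 4 probe sets (0.0258%) called by limma (adjusted p = 0.0418). That subset was chosen after the data were seen and leaves out the intermediate value of fish 52. In 72 genes of xenobiotic and steroid metabolism 1 separated higher and 3 lower, with a median of 0.00. In 31 antioxidant and iron genes 2 separated higher and 1 lower, with a median of 0.04 (-0.045 without fish 11, 52 and 66). Prdx5, a peroxiredoxin, had the largest difference of that list (1.03 ± 0.17). The counts of these lists lie near the shares of all genes, 4.03% higher and 3.01% lower.

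Regulators gave mixed values. Their counts stand beside 4.03% separated higher and 3.01% lower among all genes. Of 34 genes of the insulin and growth hormone axis 0 separated higher and 3 lower, with a median of 0.06. Among the 4 males other than fish 11, 52 and 66, 15 separated higher and 9 lower (all probe sets 18.2% and 20.2%). The median was 0.40 in those 4 males, and -0.075 in the 7 males with the pancreas covariate. Of the separated genes, igfbp3, a carrier of insulin-like growth factors, stood at -0.33 ± 0.11. Igf1 itself gave 4.22, 7.40, 7.10 and 6.68 on 0% and 6.36, 7.96 and 7.99 on 25%. Fish 11 and 52 were the lowest of their groups, and the difference of 1.09 ± 0.83 did not pass. Of 29 genes of fasting and insulin-repressed regulation 2 separated higher and 2 lower, with a median of 0.23 that was 0.64 without fish 11, 52 and 66. Btg1 and txnipb had the lowest p of that list, and txnipb separated higher by 0.54 ± 0.12, with all fish on 0% below their arrays' medians. Btg1 and nr3c1, the glucocorticoid receptor gene, lay lower (-0.99 and -0.37 ± 0.13), while tsc22d3, a target of that receptor in mammals, lay higher (0.46 ± 0.19). Igfbp1a, which insulin represses in mammals, differed by 0.17 ± 0.37. Of 30 clock genes 0 separated higher and 3 lower, with a median of -0.05, and bhlhe40, a repressor of the clock, gave 9.61, 9.70, 9.84 and 9.15 against 9.01, 6.93 and 8.99. Its difference of -1.26 ± 0.52 rested mostly on fish 53. Nfil3-5 and cry1a, the clock genes with the lowest p, separated lower at -0.34 ± 0.11 and -0.34 ± 0.13. Of 57 cell division genes 1 separated higher (ccnd1, cyclin D, 0.79 ± 0.15, though its second probe set gave 0.14 ± 0.11 and overlapped) and 1 lower (mcm7, of the replicative helicase, -0.36 ± 0.11), with a median of -0.02. Of 8 genes of yolk and oestrogen response 1 separated (esr2a, an oestrogen receptor, 0.57 ± 0.17), the median was 0.00, and esr1 stayed at 3.04 to 3.37 in all 7 males. A second esr2a probe set gave 0.78 ± 0.79, and its groups overlapped. The hepatocyte genes hnf4a and fabp10a differed by -0.16 ± 0.27 and -0.02 ± 0.11.

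**Figure D5:**
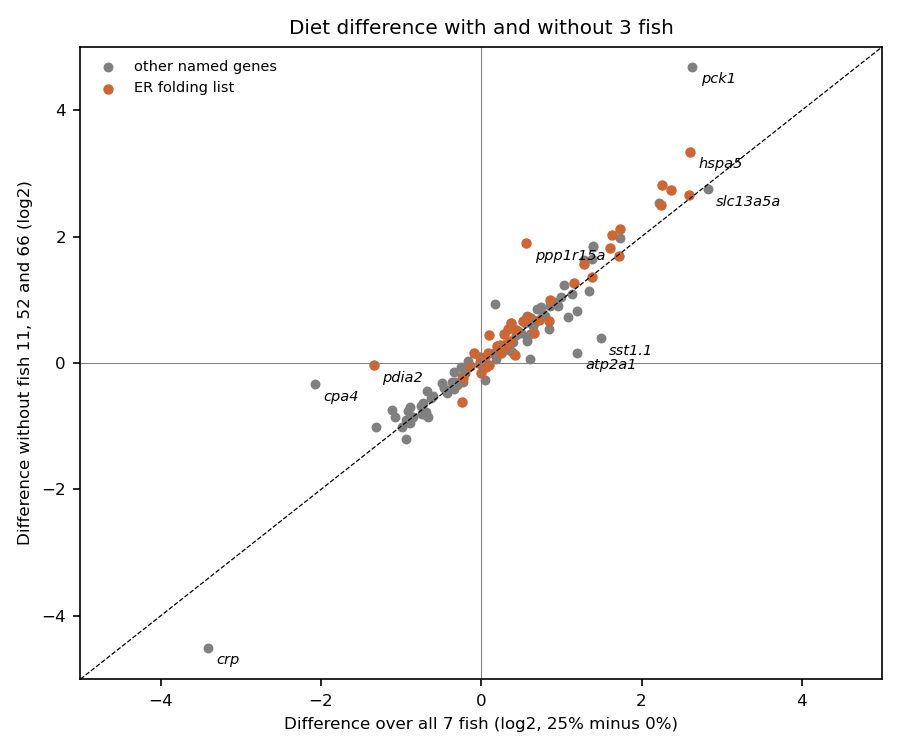
Difference in log2 signal, 25% minus 0%, over all 7 males (horizontal axis) and without fish 11, 52 and 66 (vertical axis), for ER folding genes in orange and the other named genes in grey. Hspa5 lies at 2.61 and 3.35, crp at -3.41 and -4.50, and pck1 at 2.63 and 4.69.

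Markers of other cells were set beside these results, and their counts beside the shares of all genes (4.03% separated higher, 3.01% lower). None of the intestinal, exocrine pancreas, endocrine pancreas or muscle markers separated the diets, with median differences of -0.40, -1.34, 0.18 and 0.16. Leaving out fish 11, 52 and 66, they were -0.014, -0.22, 0.046 and -0.0073. Endocrine pancreas markers (13 genes) averaged 5.12 in fish 66 and 5.45 in fish 52 and 3.12 to 3.88 in the others. Of 15 red cell genes 1 separated higher (alas2, of haem synthesis, 1.28 ± 0.46), with a median of 0.28 and the highest mean, 5.88, in fish 54. Of 19 leukocyte genes 1 separated lower, with a median of -0.33, and of 28 genes of stroma, endothelium and bile duct 2 did (anxa4, -0.91 ± 0.23, and sox9b, -0.94 ± 0.32), with a median of -0.27. Dimmer probe sets of anxa4 and sox9b gave -0.17 ± 0.12 and -0.23 ± 0.11, and their groups overlapped. Ovary and testis markers averaged 3.36 to 3.75 in every male, near the array medians, and 3 of 20 and 1 of 25 separated lower. The part of these cells in the results above was not tested.

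The male response was set against that of the 10 females in 1 fit of 17 arrays. The difference between the responses passed for 108 of 15502 probe sets (0.697%), 107 of them with the female difference above the male one. Slc13a5a was the 1 probe set in the other direction in that fit. With single fish left out, most passing probe sets still had the female difference above the male one. They were 41 of 43 without male fish 53 and 161 of 163 without female fish 8. Without fish 11, 52 and 66 together the difference passed for 15 probe sets, 7 of them with the female difference above the male one. That fit has 2 males on each diet, and no other 3 fish were left out together, so the part of these fish was not tested. Of the 20 ovary markers 11 passed in the fit of 17 arrays, with a median difference of 2.22 in females and 0.00 in males. The part of ovary RNA in the count of 108 was not tested. None of the 43 ER folding genes passed this test (lowest adjusted p = 0.142), and their median difference was 0.11 in females against 0.38 in males. For hspa5 the female minus male difference was -1.55 ± 0.46 (adjusted p = 0.275) and for manf -1.12 ± 0.30 (adjusted p = 0.160). The female differences of these genes, 1.05 ± 0.30 and 0.59 ± 0.19, had the sign of the male ones, as did those of id:ibd1087 (1.06 ± 0.27), btg1 (-0.64 ± 0.13) and ing3 (-0.70 ± 0.11). Cldnd, a claudin gene listed here as an ovary marker, passed with 3.29 ± 0.59 (adjusted p = 0.0183), the male difference being -0.46 ± 0.14.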

How the data were processed

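The authors deposited 1 table of log2 signals per probe set and array, already normalized between arrays; the log base was inferred from the values (1.84 to 14.38 in the 7 males). RNA was extracted with TRIZOL and labelled with an Affymetrix 3′ one-cycle kit, per the labels' protocols. MAS5, RMA, GCRMA and PLIER are named, per the submitters' processing notes, without saying which made the table. The table lists 15617 probe sets, of which 15502 were tested after 115 controls were removed; 10795 carried 1 symbol, 135 several and 4572 none in GEO's platform annotation. The array medians differed by less than 0.2, so no further normalization was applied.

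The 7 male arrays were fitted with limma 3.58.1 (lmFit, eBayes) in R 4.3.3, with Benjamini-Hochberg adjustment over the 15502 probe sets and a threshold of 0.05. All 17 arrays in 1 fit were an alternative for the male comparison and the fit for the female minus male difference. The model was tested on simulated data. Each gene of a list is represented by its brightest probe set, and each gene named singly by the one with the lowest p. Named genes are those with the largest called differences or, where fewer passed, the 10 per direction with the lowest p that separated and were above the median level, then the 1 or 2 leading members of each list, and 16 fixed genes. Members of lists described for their own values, and usp2a, g3bp2a, odc1, fkbp5 and mrpl47, were named after their values were seen. The 25 pathway and 10 cell type lists, the members and the tests were chosen with earlier results of these data known. Precision is limited by having 3 and 4 arrays a group. The p values set a difference against the spread between fish, of the 7 males or, in the fit of 17 arrays, of both sexes.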

Additional observations from a re-analysis of the deposited data

Results flagged for a closer look

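For slc13a5a the male and female responses to carbohydrate differed by a test of the difference itself, at -2.73 (female minus male, adjusted p = 0.00101). Cldnd differed between the sexes the other way, at 3.29 (adjusted p = 0.0183), with females at 4.62 to 6.90 on 0% and 7.40 to 9.08 on 25%. Id:ibd1087 in fish 66 stood apart from its group at 7.78, where the other 3 males on 0% lay at 6.98 to 7.07. The mean of the antioxidant and iron genes was also apart in fish 66, at 7.72. Chance sets a sample apart in this way in about 1 in 20 groups. Of 95 named genes and 35 lists tested, 1 of each was flagged, which is a smaller share. Fish 66 was one of the males with high intestinal and pancreatic marker means.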

How the results depend on the processing

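No paired analysis was possible because the male groups share no replicate numbers. The count of calls in the 7 males, 0, was also 0 after quantile normalization, median centring, restriction to brighter probe sets, averaging a gene's probe sets and either marker covariate. It was 18 with all 17 arrays, 1 with trend and robust settings (slc13a5a), 5 with array weights (manf, id:ibd1087, slc13a5a, tmed3 and an unnamed probe set), 4 without fish 11, 52 and 66, and 0 to 2 when single fish were left out. Without fish 66 the calls were id:ibd1087 and slc13a5a, and without fish 52 they were crp (-4.38) and odc1 (2.95). The 18 calls of the fit of 17 arrays became 15 after quantile normalization, 18 after centring, 28 without fish 11, 52 and 66 (7 of them among the 18) and 1 to 52 without single fish. The 108 differences between the sexes became 102 after centring, 91 after quantile normalization, 15 without fish 11, 52 and 66, and 43 (without male fish 53) to 163 (without female fish 8) without single fish.

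Of the named genes 7 changed sign somewhere, in 20 of 1607 values: sst1.1, at 1.49 over the 7 males, and others that lay between -0.18 and 0.17. Without single fish, sst1.1 ranged from -0.33 (without fish 52) to 2.87, igfbp1a from -0.070 (without fish 30, and -0.021 without fish 53) to 0.41, and pck2 from -0.092 (without fish 66, and -0.027 and -0.025 without fish 11 and 53) to 0.17. Esr1 ranged from -0.030 (without fish 54) to 0.14, fabp10a from -0.069 to 0.071 (without fish 52, and 0.027 without fish 30), hnf4a from -0.38 to 0.17 (without fish 52), and pgd from -0.54 to 0.20 (without fish 11, and 0.13 without fish 54). With the pancreas covariate pck2 was -0.085, esr1 -0.010 and pgd 0.18. Without fish 11, 52 and 66 pck2 was -0.27 and hnf4a 0.026. Array weights gave 0.0069 for fabp10a and 0.011 for hnf4a, and quantile normalization 0.069 for fabp10a. Of 630 list medians 15 moved by more than the spread between fish, none in the 3 ER and Golgi lists and 4 in fatty acid and triglyceride synthesis. The causes were not tested. Leaving out fish 11, 52 and 66, the other fits of 17 arrays and the list counts without those fish were chosen after the data were seen.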

Other observations

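The lists here were chosen after their leading members were seen, and they are given as values only. All but the ferritin list lay in the same direction as the genes of oxidative phosphorylation. Among all genes 4.03% separated higher and 3.01% lower, and 7384 of 15502 probe sets had a difference above 0. Of 59 mitochondrial ribosomal protein genes, which build the ribosomes inside mitochondria, 53 had a difference above 0, 12 separated higher on 25% and 0 lower, with a median of 0.28. Mrps34 and mrpl49 were among those that separated, at 0.67 ± 0.11 and 0.72 ± 0.21, while mrpl47 had the largest difference, 0.94 ± 0.29, with groups that overlapped. Of 18 genes of protein import into mitochondria 4 separated higher and 0 lower, with a median of 0.28, among them timm17a (0.99 ± 0.15) and tomm22 (0.68 ± 0.10). The mean of the import genes was 5.03 to 5.49 on 0% and 5.56 to 5.80 on 25%. That of the mitochondrial ribosomal protein genes overlapped, at 4.95 to 5.35 on 0% and 5.33 to 5.57 on 25%. Fish 11 was the lowest male for both lists, and without fish 11, 52 and 66 the medians were 0.20 and 0.24. Of 23 tRNA synthetase genes 2 separated higher (tars1 and cars1), with a median of 0.19 that was 0.03 without those fish. Of 4 ferritin heavy chain-like genes 2 separated lower, fthl27 and fthl30, and 2 had differences above 0, with a median of -0.21.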
